A study of Homo sapiens with 6 samples.

Results

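The MEIS and PBX homeobox cofactor genes were followed in open chromatin of HLF cells, a human hepatocellular carcinoma line with mesenchymal features, with and without the menin inhibitor SNDX-5613. They are 6 of the 20007 protein-coding genes of the GENCODE annotation: MEIS1, MEIS2, MEIS3, PBX2, PBX3 and PBX4. Every peak within 1 kb of any of their transcription start sites (TSSs), in the gene body or within 50 kb on either side was taken. Peaks of the 6 libraries that overlapped were merged into sites, which gave 100 sites in the 6 loci out of 166021 sites in all. The loci held 17 sites at MEIS1, 10 at MEIS2, 20 at MEIS3, 14 at PBX2, 14 at PBX3 and 25 at PBX4.

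MEIS and PBX proteins belong to the TALE class of homeobox transcription factors, named for a loop of additional residues in the homeodomain. They bind DNA together with each other and with HOX proteins, and so sharpen the choice of sites that HOX proteins make. Menin, encoded by MEN1, tethers the histone methyltransferase MLL1, encoded by KMT2A, to chromatin. In leukaemia with rearranged MLL1, MEIS1, PBX3 and the posterior HOXA genes are the best known genes that depend on this complex, and drugs such as SNDX-5613 were built to break the contact between menin and MLL1. The comparison addressed whether the chromatin of these genes was open in a liver cancer line, and whether its rank among open sites moved with the drug.

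The assay for transposase-accessible chromatin (ATAC-seq) was run on 3 libraries of HLF cells given the vehicle DMSO and 3 of HLF cells given 5 µM SNDX-5613. The labels give 24 h of treatment for both groups and the same batch for all 6 libraries, and name no genetic change in either group, while the study's methods give a longer treatment, so the time is uncertain. HLF is 1 cell line. The study's methods describe, for its experiments in general, a replicate as the cells of 1 dish divided between drug and vehicle, so p-values measure the spread between dishes of this line, and a fit with the replicate number as a block is given beside the results it touches. Peaks per library, after summits in the same region were joined, numbered 88026, 113675 and 96392 with DMSO and 107347, 96910 and 40568 with SNDX-5613. The genome-wide background pileup of SNDX-5613 replicate 3 was 16.2% of the median of the other 5 libraries, so this library was shallow, and 73 of the 100 sites had no peak in it. Results that rest on it are given with and without it. The cells were checked against defining markers. The mesenchymal genes VIM, CDH2, ZEB1, AXL and COL1A1, 5 of 5, had an open promoter in every library. So did 64.8% of the 20007 protein-coding genes, and this count alone therefore says little about cell type. The hepatocyte genes ALB, APOA1, HNF4A and CYP3A4 had no promoter peak in any library. APOB and TTR had one in the 5 deeper libraries and SERPINA1 in 2 libraries. PTPRC, CD3E and SPI1 of leukocytes, PECAM1 of endothelium and HBB of erythroid cells had none in any library, and CDH5 of endothelium had one in 1 library.

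The sequence under the promoter summits is shown first. Members with a peak within 1 kb of the main TSS in all 6 libraries stand above those without. Each line gives up to 200 bases of hg38 around the strongest summit, 5′ to 3′ on the strand of the gene, with annotated untranslated bases left out. The MEIS2 line is the weaker, upstream promoter site, with its summit 1236 bases before the main TSS. At the site over that TSS only 46 bases remained, and they are not shown. The lines for the MEIS3 start and the PBX4 start show where a promoter peak was absent in all or most libraries. Capitals mark 4 short motifs on either strand: TGACAG, the core bound by MEIS proteins, TGATTNAT, bound by PBX with HOX, CCAAT, bound by NF-Y, and GGGCGG, bound by SP and KLF factors.
MEIS1, chr2:66433465-66433664, plus strand, open in all 6 libraries: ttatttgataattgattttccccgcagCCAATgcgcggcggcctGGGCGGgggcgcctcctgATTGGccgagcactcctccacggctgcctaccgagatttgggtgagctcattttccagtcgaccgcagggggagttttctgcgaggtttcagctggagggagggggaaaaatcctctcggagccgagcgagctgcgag
MEIS2, chr15:37101685-37101884, minus strand, open in all 6 libraries: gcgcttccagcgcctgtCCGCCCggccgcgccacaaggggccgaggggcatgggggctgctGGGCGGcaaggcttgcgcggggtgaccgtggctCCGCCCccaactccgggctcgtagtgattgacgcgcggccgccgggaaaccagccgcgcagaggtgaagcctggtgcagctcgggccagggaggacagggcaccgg
PBX2, chr6:32190203-32190387, minus strand, open in all 6 libraries: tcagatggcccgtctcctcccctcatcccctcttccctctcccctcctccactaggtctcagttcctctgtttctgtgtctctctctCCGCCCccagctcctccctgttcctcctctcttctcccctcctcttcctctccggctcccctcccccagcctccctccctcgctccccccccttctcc
PBX3, chr9:125746109-125746308, plus strand, open in all 6 libraries: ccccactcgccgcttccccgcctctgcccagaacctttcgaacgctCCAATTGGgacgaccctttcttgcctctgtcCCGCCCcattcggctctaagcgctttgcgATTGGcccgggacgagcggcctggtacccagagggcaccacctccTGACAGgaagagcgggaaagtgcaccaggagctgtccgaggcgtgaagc
PBX4, chr19:19618714-19618913, minus strand, open in 2 libraries: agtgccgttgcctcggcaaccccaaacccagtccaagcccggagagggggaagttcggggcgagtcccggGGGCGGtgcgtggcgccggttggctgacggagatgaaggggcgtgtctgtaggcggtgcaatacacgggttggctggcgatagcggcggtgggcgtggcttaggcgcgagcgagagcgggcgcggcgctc
MEIS3, chr19:47419528-47419777, minus strand, the 250 bases before the start in the RefSeq promoter table (GRCh38.p14), no peak: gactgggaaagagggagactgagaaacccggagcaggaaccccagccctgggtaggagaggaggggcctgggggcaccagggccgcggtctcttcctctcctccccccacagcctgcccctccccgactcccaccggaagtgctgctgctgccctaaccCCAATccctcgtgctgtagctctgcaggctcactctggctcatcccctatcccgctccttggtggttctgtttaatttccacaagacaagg

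The MEIS1 window held CCAAT 2 times and GGGCGG 1 time, with 16 CpG dinucleotides. The PBX3 window held CCAAT 3 times, TGACAG 1 time and GGGCGG 1 time, also with 16 CpG. GGGCGG occurred 3 times in the upstream MEIS2 window, 1 time in that of PBX2 and 1 time in that of PBX4. CCAAT occurred 1 time before the MEIS3 start, so both motifs occurred at open promoter sites and at starts with few or no peaks. GC content over these windows ran from 60.5% at MEIS1 to 75% at MEIS2. Over the summits of all 100 sites, taken as 200 bp windows, GGGCGG lay in 27% against 14.5% of all sites, CCAAT in 17% against 24.2%, TGACAG in 17% against 14.2% and TGATTNAT in 1% against 2.8%. The median GC content was 57.5% in the loci and 52% over all sites. All 6 members matched the RefSeq promoter table, with 8 windows of 300 bp. There CCAAT was in 3 of 8 (37.5%, against 34.6% of the 35116 promoters of the table), GGGCGG in 5 of 8 (62.5% against 45.0%), TGACAG in 1 of 8, that of PBX3 (12.5% against 15.8%), and TGATTNAT in 1 of 8, a MEIS2 window (12.5% against 2.82%). The PBX3 window with TGACAG lay 1000 bases from the nearest site, and the MEIS2 window with TGATTNAT lay 1283 bases from it. Neither window overlapped a peak. A motif match describes letters and is no evidence of binding.

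MEIS1, MEIS2, PBX2 and PBX3 had a promoter peak in every library, which 64.8% of protein-coding genes did. MEIS3 had a peak only at a TSS inside the gene, PBX4 had a regular peak only at a TSS inside the gene, and the main start of PBX4 was at the edge of detection. Peak strength was compared as the percentile of −log10 p among the 33405 sites shared by all 6 libraries, since depth differed between libraries and −log10 p grows with depth. An ATAC-seq peak is an average over cells, so fewer open cells and less opening per cell cannot be told apart.

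MEIS1, the HOX cofactor that drives leukaemia with HOXA9, had its promoter site at chr2:66433294-66435274, which covered the main TSS, with its summit 1560 bases before it in an exon of another MEIS1 transcript. The site is shared with the antisense gene MEIS1-AS3. Its percentile was 79.6, 74.8 and 78.4 with DMSO and 72.7, 76.9 and 70.5 with SNDX-5613. The groups overlapped, since SNDX-5613 replicate 2 lay above DMSO replicate 2. The means were 77.6 ± 2.52 and 73.4 ± 3.27 (SD, n = 3), a difference of -4.22 percentile points (exact permutation test, two-sided p = 0.2). With 3 libraries against 3 the smallest p this test allows is 0.1, so no member could pass 0.05. Pileups at the summit were 144, 172 and 184 fragments with DMSO and 148, 163 and 24 with SNDX-5613, the last from the shallow library, where a fragment stands for 1 unit of the pileup of the peak caller. Without that library, among the 59986 sites with a peak in the 5 deeper libraries, the MEIS1 promoter stood at 88.6, 85.9 and 88.0 with DMSO and at 84.8 and 87.1 with SNDX-5613, which overlap. The difference then was -1.56 points, and without SNDX-5613 replicate 1 in place of it -0.0057, so its size rests on single libraries.

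PBX3, the partner that stabilises MEIS1 and HOXA9 in leukaemia, had its site at chr9:125745916-125746933, shared with the divergent transcript PBX3-DT. The summit lay 1164 bases before the main TSS. The site ended before that TSS and counted as a promoter site only by the rule of 1 kb. Its percentile was 72.1, 73.3 and 74.98 with DMSO and 76.7, 68.3 and 66.3 with SNDX-5613. The highest and the lowest library both had SNDX-5613. The difference of the means was -3.04 points (73.5 ± 1.43 and 70.4 ± 5.499, SD, n = 3, exact permutation test, two-sided p = 0.4). Fragments at the summit numbered 135, 179 and 176 with DMSO and 160, 143 and 23 with SNDX-5613. Without the shallow library the difference was -0.524 points, without SNDX-5613 replicate 1 -6.15 and without SNDX-5613 replicate 2 -1.98.

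PBX2, a broadly expressed PBX gene of the major histocompatibility region, had its site at chr6:32190142-32190528, over the TSS. Its percentile was 39.8, 57.3 and 48.4 with DMSO and 45.8, 43.0 and 16.9 with SNDX-5613. The lowest value came from the shallow library, where the summit had 10 fragments, and the other 2 SNDX-5613 values lay within the DMSO range. The difference was -13.3 points (48.5 ± 8.77 and 35.2 ± 15.9, SD, n = 3, exact permutation test, two-sided p = 0.4), the lowest of all 25 shared sites of the loci. Without the shallow library it was -2.13 points.

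MEIS2, a homologue of MEIS1 that acts in limb, heart and neural crest development, had a pair of promoter sites in all 6 libraries. The site over the main TSS, chr15:37100229-37100913, had percentiles of 43.6, 41.3 and 53.1 with DMSO and 49.6, 35.7 and 55.0 with SNDX-5613. SNDX-5613 gave both the highest and the lowest of these values, and the means, 46.0 ± 6.23 and 46.8 ± 9.99, were 0.78 points apart (SD, n = 3, exact permutation test, two-sided p = 0.9). The second site, chr15:37101204-37102063, lay upstream, and its percentiles were 32.1, 39.0 and 33.8 with DMSO and 35.3, 31.4 and 34.1 with SNDX-5613. Those groups also overlapped (difference -1.31 points, exact permutation test, two-sided p = 0.7).

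**Figure D1:**
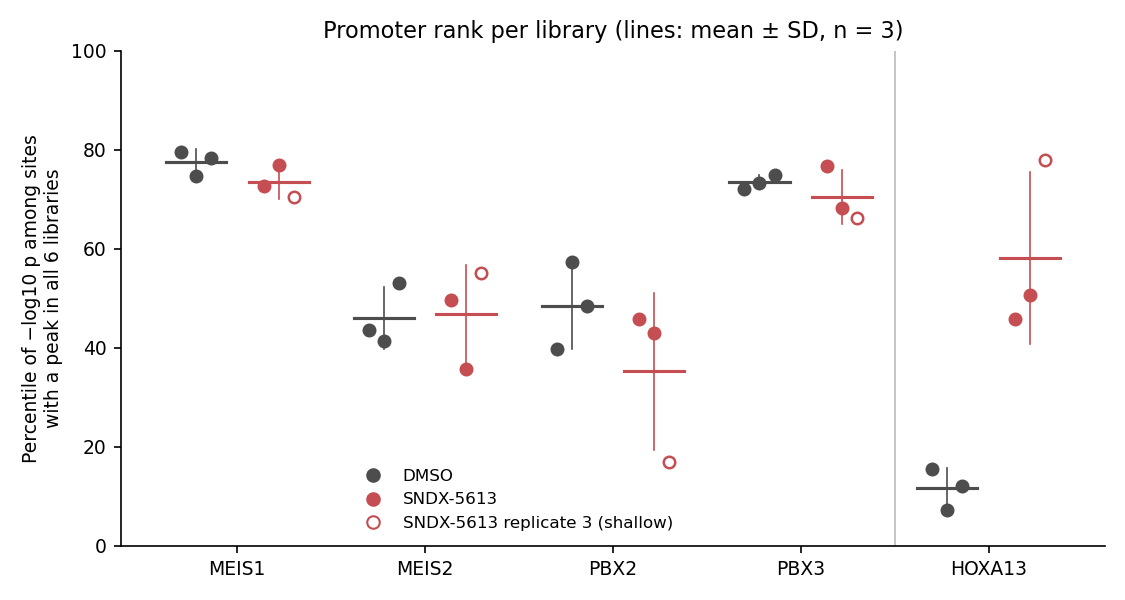
Promoter rank of the 4 members with a promoter site in all 6 libraries, and of HOXA13 to the right of the grey line. The vertical axis is the percentile of −log10 p among the 33405 shared sites, points are libraries, horizontal lines are means and vertical lines are SDs over 3 libraries. The DMSO and SNDX-5613 points overlap for MEIS1, MEIS2, PBX2 and PBX3 and do not overlap for HOXA13.

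By the DMSO mean the order was MEIS1, PBX3, PBX2 and MEIS2. MEIS1 and PBX3 overlapped in DMSO (74.8 to 79.6 and 72.1 to 74.98), as did PBX2 and MEIS2, whereas the lowest PBX3 library (72.1) lay above the highest PBX2 library (57.3). None of these promoters was strong for a promoter. Of the 12908 protein-coding genes with a shared promoter site, 39.7% had a lower mean percentile than MEIS1, 33.98% than PBX3, 13.4% than MEIS2 and 11.5% than PBX2, and the median gene stood at 80.8.

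None of the 4 member promoters had all SNDX-5613 libraries on the same side of all DMSO libraries. Over the 12908 genes this occurred upward at 7.16% and downward at 7.44% of promoters, so 0 of 4 was near the background. In the 5 deeper libraries, 0 of 6 members were separated, against 13.2% of 14048 genes upward and 12.1% downward. The median difference of the 4 was -3.63 points, against -0.369 over all genes, and the size of the difference was smaller than that of MEIS1 at 63.8% of genes, than that of PBX3 at 51.7%, of MEIS2 at 16.5% and of PBX2 at 95.0%. limma on normal scores of the ranks, fitted over all 33405 sites, gave adjusted p-values of 0.795 for MEIS1, 0.981 for MEIS2, 0.642 for PBX2 and 0.885 for PBX3. With the replicate number as a block these were 0.834, 0.981, 0.634 and 0.905.

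MEIS3, another homologue of MEIS1, had no peak at its main start at chr19:47419527 in any library. Its promoter site was at a TSS inside the gene, chr19:47414458-47414741, where the 5 deeper libraries had 38, 46 and 51 fragments with DMSO and 46 and 48 with SNDX-5613. Percentiles in the 5 deeper libraries were 48.8, 44.4 and 53.3 with DMSO and 46.9 and 48.7 with SNDX-5613, within the DMSO range. PBX4, which in adults is known mainly from testis, had a site at its main start, chr19:19618744-19618895, in DMSO replicates 2 and 3 only, with 8 and 9 fragments and percentiles of 14.4 and 15.7 in the whole peak list. At the genome-wide background the fewest fragments called as a peak were 6 or 7 in the 5 deeper libraries, so these peaks were near the limit of detection and a loss with SNDX-5613 was not detectable at this depth. A second PBX4 site, chr19:19562977-19563371, lay at the start of a retained-intron transcript and had percentiles of 21.5, 17.6 and 2.28 with DMSO and 13.6 and 23.7 with SNDX-5613 in the 5 deeper libraries. A second MEIS1 promoter site, chr2:66495873-66496481, lay at a TSS inside the gene, of a transcript without a defined coding sequence. In the 5 deeper libraries it stood at 42.6, 39.3 and 31.2 with DMSO and at 31.5 and 23.3 with SNDX-5613, again with overlap.

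Over the whole loci, 9 of the 100 sites were promoter sites, 21 lay elsewhere in the gene body and 70 in the flanks, and 28 lay at the promoter of another gene. A peak was present in all 6 libraries at 25% of the sites (20.1% of all sites) and in 1 library at 36% (36.2% of all sites). Across the 6 members, shared sites numbered 2 at MEIS1, 3 at MEIS2, 5 at MEIS3, 7 at PBX2, 3 at PBX3 and 5 at PBX4. The PBX2 locus is gene-dense, and 7 of its 14 sites lay at promoters of other genes, among them AGPAT1, RNF5, GPSM3 and NOTCH4.

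**Figure D2:**
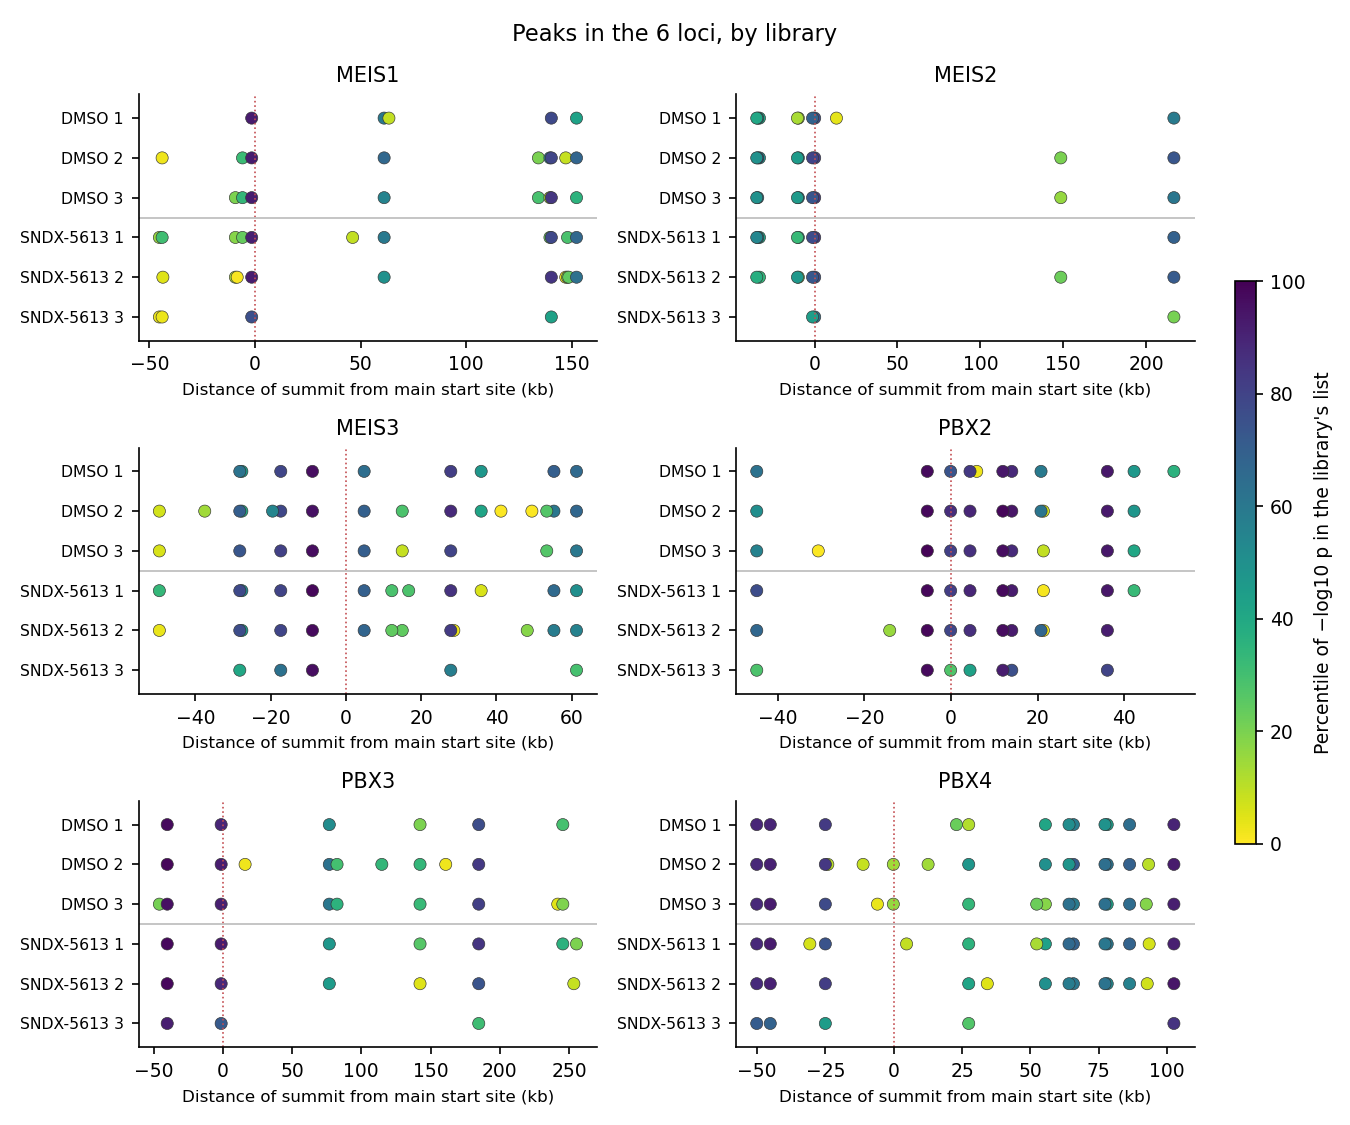
Peaks in the 6 loci by library. The horizontal axis is the distance of a site's strongest summit from the main start of the gene in kb, positive along the gene, each row is a library and colour is the percentile of −log10 p within that library's peak list. The 25 shared sites recur in every row. A strong site can still be absent from a row: chr15:37134734-37135002 in the MEIS2 flank reaches 80.2 in DMSO replicate 2. It has no peak in SNDX-5613 replicates 2 and 3. The 36 sites seen in 1 library have a median percentile of 9.1 and reach 54.4, while SNDX-5613 replicate 3 has the fewest peaks.

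No site of the loci was gained, defined as a peak in all 3 SNDX-5613 libraries and in no DMSO library, and none was lost by the reverse rule. Over all sites 0.147% were gained and 1.18% lost, so 0 of 100 was near the background. Without the shallow library 2 of the 100 sites were gained and 0 lost, against 2.43% and 1.23% of the 163399 sites with a peak in the 5 deeper libraries. The first was chr2:66582991-66583310, 148043 bases downstream of the MEIS1 start in the body of the long noncoding RNA gene LINC01798, with 13 and 11 fragments in SNDX-5613 replicates 1 and 2. The second was chr19:47407233-47407482 in an intron of MEIS3, with 16 and 16 fragments. Both stood low in their lists, at percentiles of 28.6 and 18.6 for the MEIS1 site and 28.7 and 24.3 for the MEIS3 site.

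Of the 25 shared sites, 1 was separated upward, meaning that all SNDX-5613 libraries ranked above all DMSO libraries, and 0 downward, that is 4% and 0%, against 8.54% and 8.08% of all shared sites. It was chr19:47427354-47428543, 8878 bases upstream of the MEIS3 start and at no annotated promoter, with its summit in the last exon of the neighbouring gene SLC8A2, in the 3′ untranslated part. Its percentiles were 89.7, 84.6 and 90.8 with DMSO and 94.8, 92.9 and 95.6 with SNDX-5613, the shallow library included. Fragments at the summit numbered 178, 220 and 238 with DMSO and 262, 254 and 46 with SNDX-5613. The difference was 6.03 points (88.4 ± 3.31 and 94.4 ± 1.36, SD, n = 3, exact permutation test, two-sided p = 0.1, the smallest it allows). In limma the site differed by 0.39 normal-score units ± 0.16 (SE) with adjusted p = 0.467, and it was not called. It was the only site of the loci with an unadjusted p under 0.05, which 9.94% of all shared sites had, and limma called 0 of the 25 sites, against 0.195% of all shared sites. With the replicate number as a block limma called 3 of all shared sites and again 0 of the 25. The MEIS3 upstream site stayed separated upward with each library left out in turn. That follows almost entirely from its separation in all 6 libraries and adds no support. It was not separated when sites were ranked by fold enrichment or within the whole peak lists.

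In the 5 deeper libraries 4 of 39 sites were separated upward and 3 downward (10.3% and 7.69%), against 14.3% and 14.4% of all such sites. Apart from the MEIS3 upstream site, those higher with SNDX-5613 were chr2:66587324-66587563 beyond the MEIS1 end in LINC01798, chr19:47447426-47447816 at the promoter of SLC8A2, a sodium-calcium exchanger, and chr6:32234960-32235285 in the PBX2 flank. The lower ones were chr19:47357906-47358370 at the promoter of DHX34, a helicase of nonsense-mediated decay, and a pair in introns of PBX3. At the stronger PBX3 intron site, chr9:125823784-125824512, percentiles were 32.9, 33.0 and 37.9 with DMSO and 16.8 and 18.3 with SNDX-5613, from 20, 28 and 27 against 16 and 17 fragments. The weaker one, chr9:125889644-125889985, had 9, 12 and 13 fragments with DMSO and 10 and 7 with SNDX-5613. None of these sites was called by limma in the 5 libraries, where it called 0 of all 59985 sites, so this does not single out the loci.

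**Figure D3:**
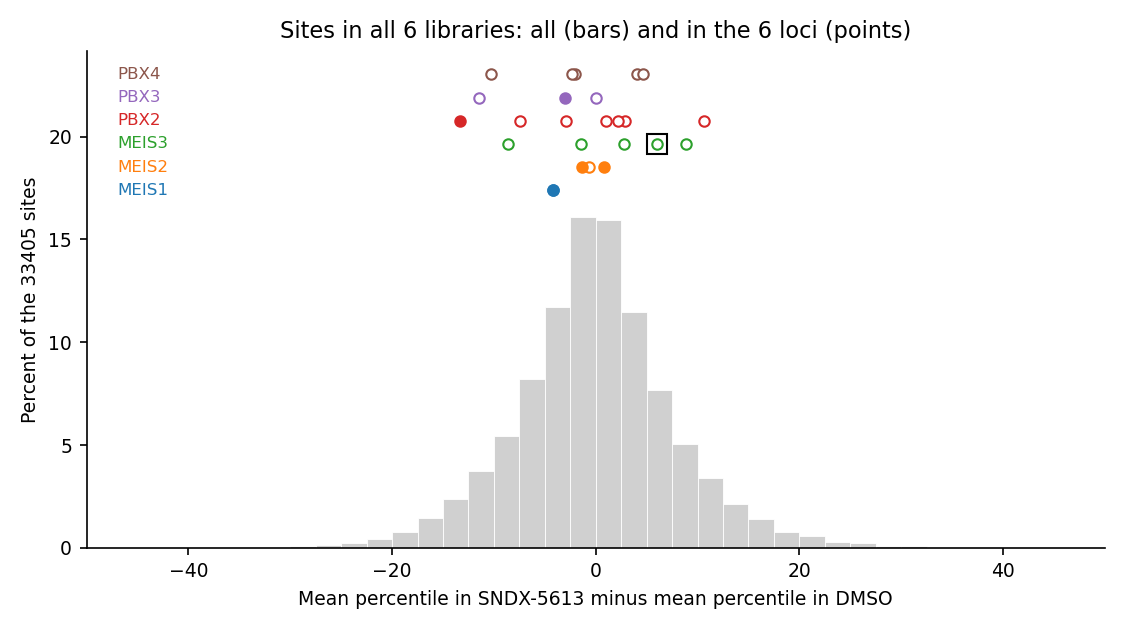
Difference between the mean SNDX-5613 and mean DMSO percentile at the shared sites. Bars give the percent of all 33405 sites per 2.5 points (8 sites beyond ± 50 are not drawn), and points give the 25 sites of the loci by member, filled for promoter sites, with a square around the site upstream of MEIS3. The 2 MEIS1 points coincide, and the locus points run from -13.3 to 10.7.

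The 25 shared sites differed between groups by -13.3 to 10.7 points, with a median of -1.31 and quartiles of -4.18 and 2.75. Over all shared sites the median was -0.0933 and the quartiles -4.48 and 4.23. The mean was higher with SNDX-5613 at 11 and lower at 14.

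Regions in the loci were also counted per 10000 regions of a library, to allow for the length of the lists. In all 6 loci together there were 6.25, 6.42 and 6.64 with DMSO and 5.96, 6.71 and 7.15 with SNDX-5613, which overlap. At MEIS1 the share was 0.682, 0.968 and 1.04 with DMSO and 1.12, 1.24 and 1.23 with SNDX-5613, from 6, 11 and 10 regions and from 12, 12 and 5. Every SNDX-5613 library lay above every DMSO library there. The same held at 5.83% of the 19628 protein-coding genes with a region, the reverse at 5.48%, and among the members at 1 and 0 of 6. The additional MEIS1 regions were weak: at chr2:66389692-66390095, for example, SNDX-5613 replicates 1 and 3 had 8 and 3 fragments. In the authors' consensus sets, 83.3% of the 60 DMSO regions in the loci overlapped an SNDX-5613 region and 94.1% of the 51 SNDX-5613 regions overlapped a DMSO region. The 3 SNDX-5613 regions without a partner were all at MEIS1, as were 3 of the 10 DMSO regions without a partner, and the PBX4 start was among the other 7.

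**Figure D4:**
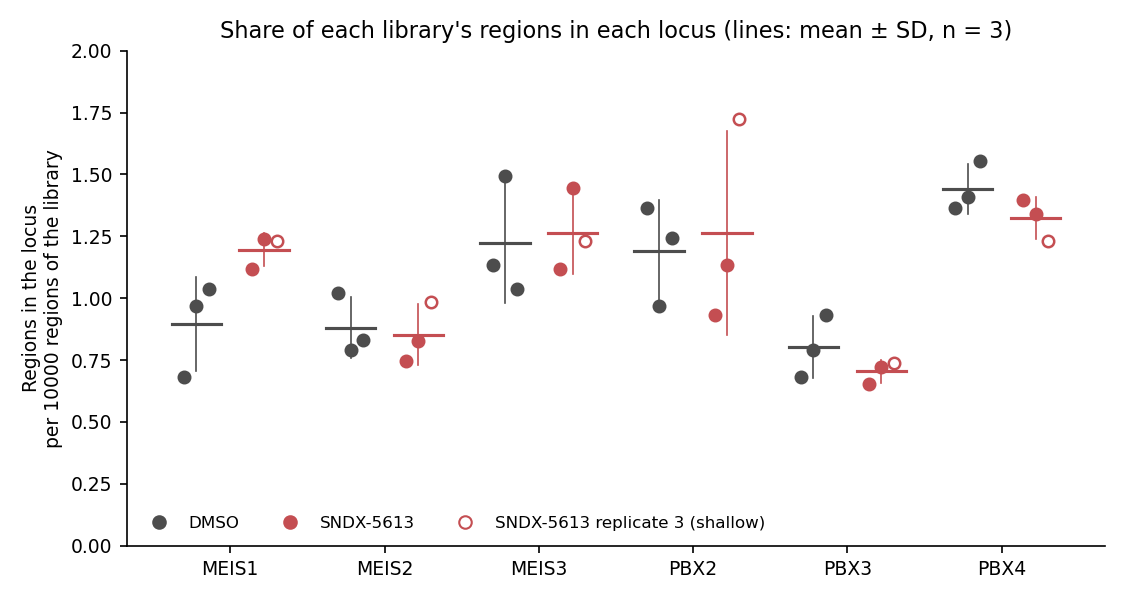
Regions in each locus per 10000 regions of the library. Points are libraries, horizontal lines are means and vertical lines SDs over 3 libraries, and the open point is SNDX-5613 replicate 3. The groups do not overlap at MEIS1 (DMSO 0.682 to 1.04, SNDX-5613 1.12 to 1.24) and overlap at the other members.

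The partners of these proteins were read in the same way. The other TALE genes PKNOX1, PKNOX2, TGIF1 and TGIF2, which include relatives that bind PBX and repressors that compete with MEIS, had promoter peaks in all 6 libraries, 4 of 4. Of these 3 had a shared site and 0 were separated, against 7.16% of all genes upward and 7.44% downward. In the 5 deeper libraries 1 of the 4 was separated upward, against 13.2% of all genes. It was TGIF1, at 90.2, 94.4 and 91.2 with DMSO and 95.2 and 95.5 with SNDX-5613. MEN1, KMT2A and PSIP1, the last encoding LEDGF, which docks the complex on chromatin, had peaks in 3 of 3 with 0 separated. For MEN1 the mean percentile was 98.7 with DMSO and 99.3 with SNDX-5613. Of the genes known from leukaemia as menin-MLL1 targets, MEF2C, CDK6, MYB and JMJD1C had peaks in all 6 libraries, and FLT3 in the 5 deeper ones, with 0 of 4 shared sites separated. In the 5 deeper libraries 1 of 5 was separated upward, again against 13.2% of all genes. It was FLT3, at 3.35, 0.445 and 0.881 with DMSO and 8.77 and 10.9 with SNDX-5613, all near the bottom of the ranks.

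The HOXA genes, whose products pair with MEIS and PBX, differed among themselves. HOXA7, HOXA9 and HOXA11 had no promoter peak in any library, so the usual HOXA9 partner of MEIS1 had no peak at its promoter in these lists. HOXA5, HOXA6, HOXA10 and HOXA13 each had one in all 6. Of these 4, 1 was separated upward and 0 downward, against 7.16% and 7.44% of all genes with a shared promoter site. At HOXA13, the most posterior gene of the cluster, the percentile was 15.4, 7.18 and 12.1 with DMSO and 45.8, 50.7 and 77.9 with SNDX-5613. Each SNDX-5613 library, the shallow one included, lay far above the DMSO libraries. The difference was 46.5 points (11.6 ± 4.15 and 58.1 ± 17.3, SD, n = 3, exact permutation test, two-sided p = 0.1, the smallest it allows), and in limma 1.44 normal-score units ± 0.24 (SE) with adjusted p = 0.0691, or 0.114 with the replicate number as a block, both of which missed the threshold of 0.05. In the 5 deeper libraries it stood at 35.2, 21.1 and 31.2 against 68.0 and 71.6. The site, chr7:27199979-27200663, is shared with HOTTIP, the long noncoding RNA that starts beside HOXA13, and the lists cannot assign it to either gene.

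For each member with a shared promoter site, the 2 genes nearest in the 6 percentiles were found, by Euclidean distance over the 6 libraries. MEIS1 was nearest to HDHD5 (distance 2.80) and ZKSCAN4 (4.25), and PBX3 to ENTPD4 (3.62) and ZNF800 (3.87). PBX2 was nearest to LIMK1 (9.64) and FLOT1 (12.9). Both were low in the shallow library as PBX2 was, at 17.2 and 15.7, which follows from the choice, since that library entered the distance. MEIS2 was nearest to ZNF114 (10.3) and CT83 (11.1).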

How the data were processed

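ATAC-seq of HLF cells gave 6 deposited peak lists, 3 with DMSO and 3 with SNDX-5613, grouped by their labels, and 2 consensus sets of the authors. The submitters' processing notes name Trim Galore 0.6.7, Bowtie2 2.3.4.1, Picard 2.20.0, SAMtools, deepTools 3.5.4 and MACS2, on hg38, and peaks were called per library. Each deposited list gives the authors' fold enrichment (a ratio to local background) and −log10 p and −log10 q per summit. The consensus sets were made with RMSPC and only their regions were used. Summits in 1 region were joined, and regions of the 6 libraries overlapping by at least 1 bp made a site. Ranks, not −log10 p itself, were compared, because strength grows with depth. Whole pileups, solved from fold and −log10 p, came out for 100% of regions in each library (tolerance 0.001 in −log10 p), with backgrounds of 0.211 to 1.51. Read counts were not analysed here, so the authors' DESeq2 counts model was not fitted.

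Site tests were limma 3.58.1 with Benjamini-Hochberg adjustment over all shared sites (R 4.3.3), tested on simulated data, and exact permutation tests for single values, left unadjusted. GENCODE 44 gave the annotation, and 0 sites lay past a chromosome end. The rule for names took all members with every promoter site, every gained or lost site, every site called by limma, separated sites up to 3 a member, fixed lists of partners and markers, and the 2 most alike genes. Sites gained, lost or separated only in the 5 deeper libraries, and the weak MEIS1 region given as an example, were named after their values were seen. Members and lists were chosen with earlier results of these data known. Some markers of these lists are not reported here.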

Additional observations from a re-analysis of the deposited data

How the results depend on the processing

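The promoter differences of MEIS1 and PBX3 kept their sign under 10 of 11 alternatives, that of PBX2 under 11 and that of MEIS2 under 6, but not their size: with a library left out they ran from -5.97 to -0.0057 at MEIS1, -6.15 to -0.524 at PBX3 and -18.6 to -2.13 at PBX2. Ranking by fold enrichment turned them to 0.97 points at MEIS1 and 7.61 at PBX3. At MEIS2 the difference was -6.39 within the whole lists, -0.41 without DMSO replicate 1, -1.57 without DMSO replicate 2, -0.64 without SNDX-5613 replicate 1 and -1.997 without SNDX-5613 replicate 3, in a range of -1.997 to 6.29 over the libraries left out. Sites separated upward numbered 2 of 22 with an equal number of regions (7.94% of all shared sites) and 0 of 25 by fold enrichment (7.92%). They numbered 0 of 25 within the whole lists (0.994%) and 3 of 39 with flanks of 100 kb (8.54%). With a library left out they numbered 1 to 4, against 12.3% to 14.5% of all shared sites. Those separated downward numbered 1 of 24 at −log10 q of at least 3 (7.66% of all shared sites) and 1 of 25 by fold enrichment (6.83%). They numbered 2 of 25 within the whole lists (7.68%) and 1 of 39 with flanks of 100 kb (8.08%). With a library left out they numbered 1 to 3, against 12.2% to 14.4% of all shared sites. Member promoters separated downward numbered 1 within the whole lists (MEIS1) and 0 to 1 with a library left out: PBX2 without DMSO replicate 1, MEIS1 without DMSO replicate 2 or SNDX-5613 replicate 2, and PBX3 without SNDX-5613 replicate 1. No share over all genes is given for the alternatives in which 1 was separated, so these cannot be set against a background. No member promoter was separated upward under any alternative run. With an equal number of regions 1 site was lost. With a library left out 0 to 2 sites were gained and 0 to 4 lost, the 4 without DMSO replicate 1. Without SNDX-5613 replicate 3 the shares over all sites were 2.43% gained and 1.23% lost. No share over all sites is given for the other alternatives, so those gained and lost counts cannot be set against a background.

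limma called 65 of all shared sites, 256 with array weights, 3 by log2 fold enrichment, 17 with an equal number of regions and 0 to 3 with a library left out, and 0 in the loci under all 13 of its alternatives. With the replicate block it called 3 over all sites and 0 in the loci. Per the study's methods a replicate was 1 dish divided between the treatments, but no source used here says that equal numbers mark the same dish in this assay. The deviations of same-numbered libraries from their group means correlated at 0.0164, 0.000532 and 0.00698, so both fits are given, and not every library correlated best with its own number. The causes of these shifts were not tested. Depth limits absences: in the shallow library 3 fragments sufficed for a peak, but 73 of the 100 sites had none there.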
